A study of Mus musculus with 12 samples.

Results

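The genes described here are those of the proteasome, taken as every row of the deposited table whose gene symbol begins with Psm, a letter from a to g and a digit. The rule found 49 of the 30743 rows. They were sorted by role into 7 alpha and 7 constitutive beta subunits of the core particle, 3 immunoproteasome subunits, 2 tissue-restricted core subunits, 6 ATPase and 11 non-ATPase subunits of the regulatory particle, 3 chaperones of the regulatory base, 4 activators, 1 inhibitor and 4 core assembly chaperones. The last row, Psmc3ip, encodes a partner of recombination enzymes in meiosis and is not a subunit. Whole livers of C57BL/6J male fetuses were taken at 15 ± 0.5 dpc, 6 from dams on a control diet with 13.5 kcal% fat and 6 from dams on a high-fat diet (HFD) with 60 kcal% fat. The dams had been on their diets for 12 to 14 weeks, and polyA-selected RNA was sequenced. The value used for each gene was the authors' average level over all 12 livers, in log2 CPM (read counts scaled to a common library size of 1000000). It mixes both diets and carries no SD, so no gene was compared between the diets and no value below has a replicate error. Depth per liver is unknown.

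The proteasome is the barrel-shaped protease that degrades proteins tagged with ubiquitin. Stacked rings of alpha and beta subunits form the core, in which a few beta subunits cut the substrate, and a regulatory particle recognises ubiquitin, unfolds the substrate with a ring of ATPases and feeds it into the core. In cells exposed to interferon, and in blood cells of several lineages, the cutting subunits are exchanged for those of the immunoproteasome, which changes the peptides available for antigen presentation.

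Most hepatocyte markers were high, while markers of other liver cells were uneven. Alb and Afp, the main plasma proteins of fetal hepatocytes, were listed at 15.95 and 15.73 log2 CPM. Among genes of white cells, the granule enzyme Mpo was at 9.57 log2 CPM, whereas all 3 T lineage markers and all 3 testis markers lay below 1 CPM. Markers of a kind had unlike levels. The hepatocyte gene Serpina1a was at -2.44, the leukocyte genes Ptprc and Cd68 at -0.37 and -2.26, and the erythroid genes Tfrc and Alas2 at 5.08 and -0.51 log2 CPM. Of the endothelial markers, Kdr was at 6.15 and Stab2 at 1.16 log2 CPM and Pecam1 was at the lowest value of the table. This lowest value, -2.71 log2 CPM (0.152 CPM), was shared by 11091 rows and is named the floor here. Serpina1a, Alas2, Ptprc and Pecam1 have 2 or more RefSeq coding transcripts, a property taken up below. So do Kdr and Tfrc, while the low Cd68 has 1. Here, fewer cells of a type, less RNA per cell and the way reads were counted cannot be told apart.

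Most subunits that every proteasome needs were listed at high levels, but several were listed near or below 1 CPM, which says only how they appear in this table. The 31 subunits that are present in equal amounts in the assembled complex (alpha, constitutive beta, ATPase and non-ATPase) had a median of 7.63 log2 CPM, and 23 of the 31 were listed at 32 CPM or more. Of the 31, 6 were listed below 1 CPM: Psma3, Psmc1, Psmc4, Psmd2, Psmd4 and Psmd8. For comparison, 55.0% of the 20247 coding genes with a known length were below 1 CPM. All members but Psmd5 lay above the floor, and 10 of the 49 lay below 1 CPM.

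**Figure D1:**
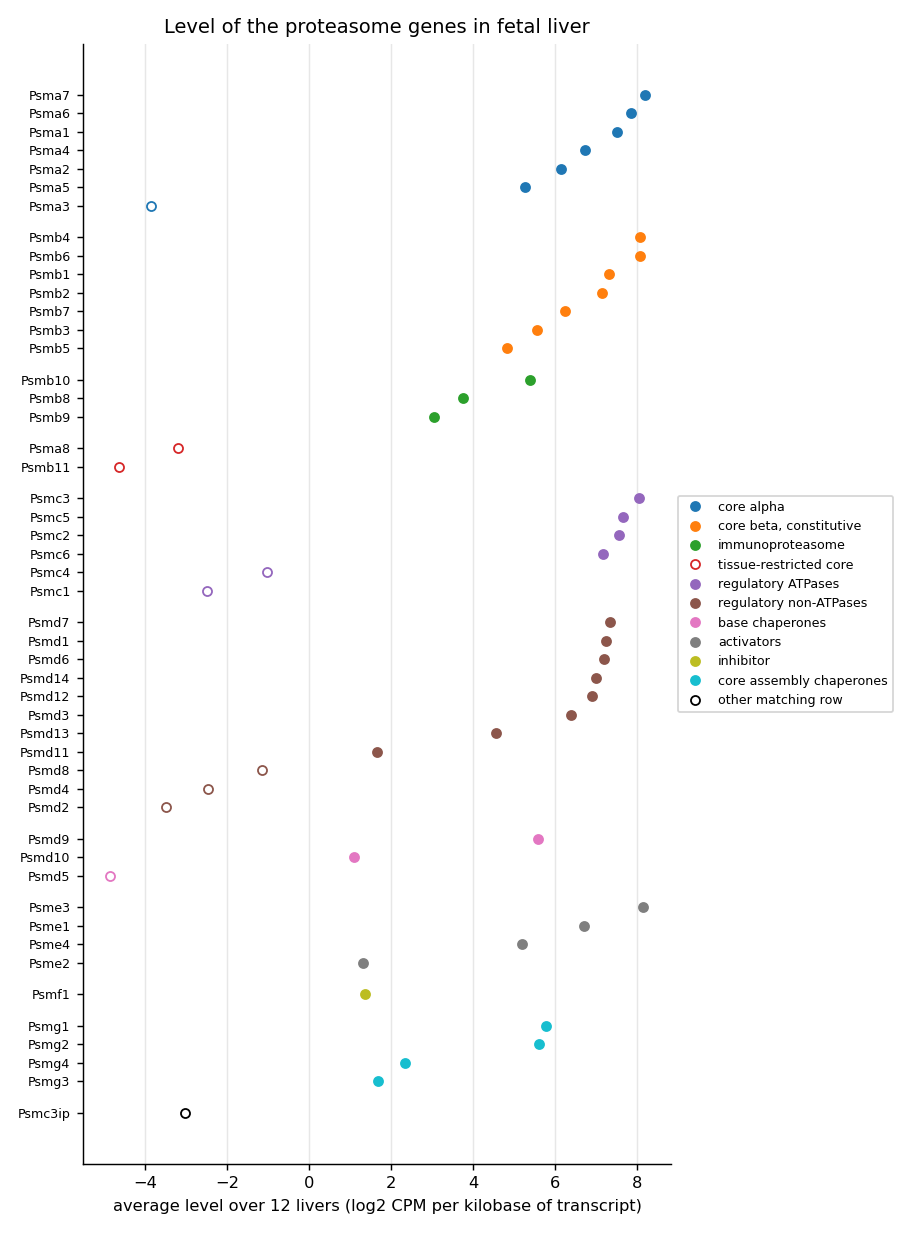
Average level over 12 livers of each of the 49 proteasome genes, in log2 CPM per kilobase of transcript, sorted within each class of the legend. Filled points are genes listed at 1 CPM or more and open points are the 10 genes below it. The alpha, beta and ATPase genes that are filled sit between 4.82 and 8.18.

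To set genes of unequal length side by side, each level was divided by the length of the longest coding transcript that has a RefSeq match, giving log2 CPM per kilobase. Over the 31 equimolar subunits the SD of these values was 3.91, and it was 1.45 over the 25 listed at 1 CPM or more, which ranged from 1.65 to 8.18. Among the 7 alpha subunits, which form the outer rings and the gate, Psma7 was the highest at 8.18 log2 CPM per kilobase, followed by Psma6 at 7.85, Psma1 at 7.51, Psma4 at 6.72, Psma2 at 6.15 and Psma5 at 5.26. Psma3 was listed at -2.35 log2 CPM (0.197 CPM, which is 0.044 CPM above the floor), far from the others. The median of the alpha class was 6.72 log2 CPM per kilobase, which is above 96.3% of the 15755 coding genes that were above the floor.

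All 7 constitutive beta subunits were listed above 1 CPM. Of those without a cutting site, Psmb4 was at 8.07, Psmb1 at 7.31, Psmb2 at 7.13 and Psmb3 at 5.56 log2 CPM per kilobase. Of those that cut, Psmb6 (caspase-like activity) was at 8.07, Psmb7 (trypsin-like) at 6.23 and Psmb5 (chymotrypsin-like) at 4.82 on the same scale. The class median of 7.13 was above 97.3% of the same genes.

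The 3 immunoproteasome subunits were lower than their constitutive counterparts, and their class median was above 80.0% of the coding genes above the floor. Psmb10, Psmb8 and Psmb9 were listed at 54.8, 22.0 and 11.1 CPM, which is 5.38, 3.76 and 3.04 log2 CPM per kilobase. Psmb9 and Psmb6, which replace each other, differed the most, with Psmb6 32.8-fold higher per kilobase. Psmb5 was 2.09-fold higher than Psmb8, and Psmb7 was 1.80-fold higher than Psmb10. Per kilobase of coding sequence, the difference of Psmb8 from Psmb5 was -0.27 on the log2 scale, against -1.06 per kilobase of transcript. Psmb5 is also one of the members whose sequence is largely shared with a pseudogene (given below), and the part of this in its level was not tested. With no values of single livers, none of these differences has an error.

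**Figure D2:**
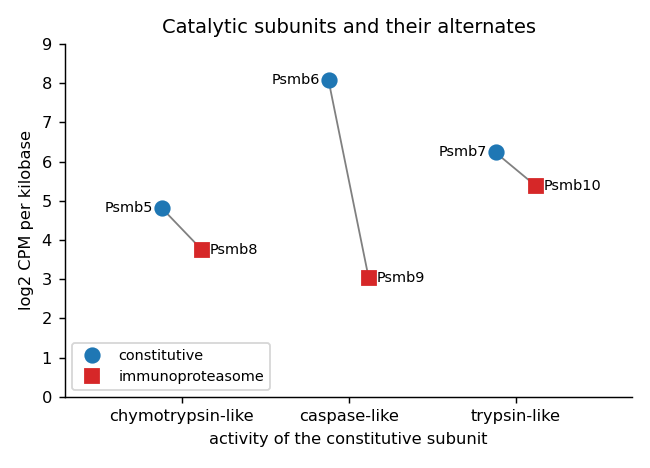
Level in log2 CPM per kilobase of transcript (average over 12 livers) of the constitutive catalytic subunits (circles) and of the immunoproteasome subunits that take their place (squares), one pair for each cutting activity. Each immunoproteasome subunit lies below its counterpart, with the widest gap between Psmb6 at 8.07 and Psmb9 at 3.04.

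Psmb8 and Psmb9 both lie in the major histocompatibility region, at chr17:34197721-34201454 on the plus strand and chr17:34181987-34187764 on the minus strand (GRCm38), with 9956 bases between them. Psmb5 and Psmb11 are 3410 bases apart on chromosome 14. The tissue-restricted subunits were near the floor. Psma8, which takes part in the proteasome of male germ cells, was at -2.44 log2 CPM, and Psmb11, the subunit of thymic cortical epithelium, was at -2.54 log2 CPM. The genes for loading peptides that are induced along with the immunoproteasome had unlike levels. B2m, the light chain of class I molecules, was the highest of the 10 interferon and antigen presentation genes at 8.89 log2 CPM, Tapbp was at the floor, and 5 of the 10 were below 1 CPM.

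In the regulatory particle, 4 of the 6 ATPases, the motor that unfolds substrates, lay close together. Psmc3 was at 8.05, Psmc5 at 7.64, Psmc2 at 7.57 and Psmc6 at 7.15 log2 CPM per kilobase, an SD of 0.37, and the median of all 6 was above 97.8% of the coding genes above the floor. Psmc4 and Psmc1 belong to the same ring and were listed at -0.51 and -1.80 log2 CPM (0.704 and 0.286 CPM). These lie 0.551 and 0.134 CPM above the floor. Of the non-ATPase subunits, the scaffold Psmd1 was at 7.24 and Psmd14, the enzyme that removes ubiquitin chains, was at 7.00 log2 CPM per kilobase. Psmd7, the partner of Psmd14, was at 7.33, and the lid subunits Psmd6, Psmd12, Psmd3, Psmd13 and Psmd11 were at 7.19, 6.89, 6.38, 4.56 and 1.65 on this scale. The other scaffold, Psmd2, and the ubiquitin receptor Psmd4 were listed at -1.91 and -2.05 log2 CPM (0.267 and 0.241 CPM). These lie 0.114 and 0.089 CPM above the floor. The lid subunit Psmd8 was at -0.55 log2 CPM. Subunits whose symbols do not match the rule were also unlike: Shfm1, the small lid protein also known as Sem1, was at 7.59 log2 CPM, and the ubiquitin receptor Adrm1 was at 0.90 log2 CPM.

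Among the genes that open, close or build the particle, Psme3, the nuclear activator, was the highest member of all in CPM (750 CPM) and stood at 8.14 log2 CPM per kilobase. Psme1 and Psme2 form a ring together and are induced by interferon. Psme1 was at 6.71 and Psme2 at 1.31 log2 CPM per kilobase, a 42.3-fold difference. Psme4, an activator in the nucleus, was at 5.19 and the inhibitor Psmf1 at 1.35 log2 CPM per kilobase. Of the core assembly chaperones, Psmg1 and Psmg2 work as a pair and were at 5.77 and 5.59 log2 CPM per kilobase. Psmg4 and Psmg3 make up the other pair and were at 2.33 and 1.68. The base chaperone Psmd9 was at 5.58, Psmd10 at 1.09 log2 CPM per kilobase, and Psmd5 was at the floor.

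By summed level, the 39 members listed at 1 CPM or more added up to 6565 CPM. The non-ATPases held 24.1%, the ATPases 20.6%, the alpha subunits 16.8%, the activators 16.8% and the constitutive beta subunits 16.5% of this sum. Per kilobase the order changed, with 23.7% for the constitutive beta, 22.0% for the alpha, 19.5% for the non-ATPase, 19.1% for the ATPase genes and 10.2% for the activators. The immunoproteasome subunits held 1.34% of the summed CPM and 1.52% of the summed CPM per kilobase.

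The low values were set beside 2 properties of the annotation. One is how much of a member's transcript is repeated in another gene, measured as the share of its 50-base words that occur in a transcript of another gene. It was 10% or more for 11 of the 49 members, 8 of 36 with 1 RefSeq coding transcript and 3 of 13 with 2 or more. Among all coding genes the counts were 2249 of 12152 and 676 of 7619. Reads that fall inside such a stretch cannot be assigned by sequence alone, and how they were counted is not given in the sources used here. The stretches below are shown as examples, chosen after the values were seen: Psma3, Psmd2 and Psmc1 were listed below 1 CPM, and Psmb5 and Psme2 enter the comparisons above. Each is the first part of the longest coding run shared with the copy, in GENCODE transcripts on GRCm38, read 5′ to 3′ with no base marked in capitals. Positions count from the first base of the start codon. The runs lie in coding exons of Psma3 (chr12:70974621-70996347, plus strand), Psmd2 (chr16:20651652-20663414, plus), Psmc1 (chr12:100110154-100123405, plus), Psmb5 (chr14:54614119-54618022, minus) and Psme2 (chr14:55587441-55591113, minus).
Psma3, coding bases 104 to 223, shared with the processed pseudogene Gm13835: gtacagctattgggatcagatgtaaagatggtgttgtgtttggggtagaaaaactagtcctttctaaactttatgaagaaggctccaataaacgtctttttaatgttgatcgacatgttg
Psmd2, coding bases 249 to 368, shared with the pseudogene Gm5422: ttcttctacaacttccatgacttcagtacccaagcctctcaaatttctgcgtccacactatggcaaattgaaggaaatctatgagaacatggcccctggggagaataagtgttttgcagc
Psmc1, coding bases 480 to 594, shared with the processed pseudogene Gm9575: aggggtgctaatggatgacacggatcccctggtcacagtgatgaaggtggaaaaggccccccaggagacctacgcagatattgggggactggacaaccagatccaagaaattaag
Psmb5, coding bases 466 to 585, shared with the processed pseudogene Gm3375: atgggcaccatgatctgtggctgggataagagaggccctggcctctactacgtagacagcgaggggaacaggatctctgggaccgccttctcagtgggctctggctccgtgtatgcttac
Psme2, coding bases 1 to 120, shared with the gene Psme2b: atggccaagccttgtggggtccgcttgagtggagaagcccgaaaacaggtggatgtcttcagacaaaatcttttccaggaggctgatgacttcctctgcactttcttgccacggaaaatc

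The longest of these runs was that of Psma3, 662 coding bases without a mismatch, followed by 311 bases in Psme2, 202 in Psmd2, 194 in Psmb5 and 115 in Psmc1. The share of words found in another gene was 59.0% for Psme2, 56.2% for Psmb3, 55.9% for Psmb5, 54.6% for Psma5, 27.3% for Psmd2, 26.3% for Psma4, 22.8% for Psmg3, 22.0% for Psma3, 17.5% for Psmc1, 14.6% for Psme1 and 13.9% for Psmd11. These shares are of the whole transcript, and that of Psma3 has 2846 bases, of which 765 are coding. Psma4 and Psme1 were listed at 122 and 117 CPM. Psmc4, Psmd4 and Psmd8 were below 1 CPM with none of their words shared. Among equimolar subunits with 1 RefSeq transcript, the 19 with under 10% shared had a median of 7.75 log2 CPM. The 7 with 10% or more had a median of 4.67. Over coding genes above the floor with 1 RefSeq transcript, these medians were 2.40 and 1.05 log2 CPM. The part of shared sequence in these levels was not tested.

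**Figure D3:**
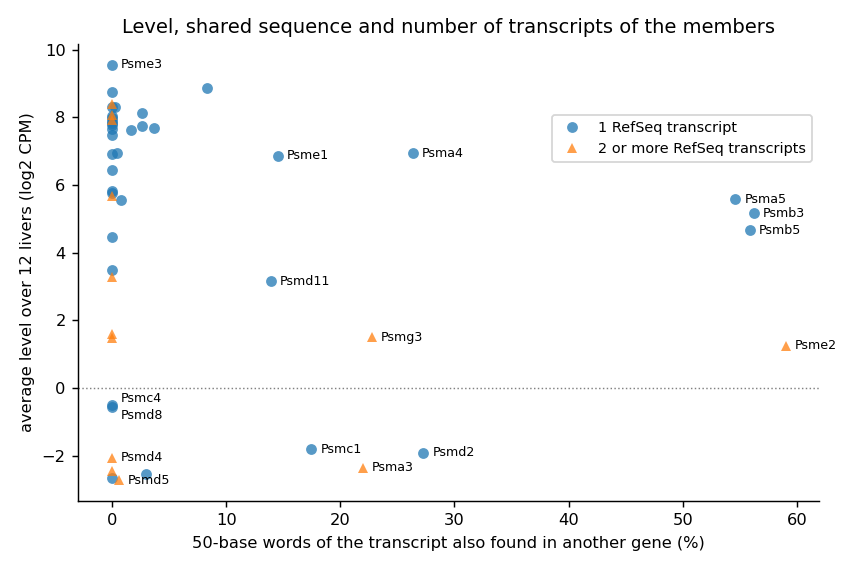
Level of the 49 members (log2 CPM, average over 12 livers) against the share of their 50-base words that another gene also holds, in percent. Circles have 1 RefSeq coding transcript and triangles 2 or more, and the dotted line is 1 CPM; Psmc1, Psma3 and Psmd2 lie below it with 17.5%, 22.0% and 27.3% shared.

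The other property is the number of RefSeq coding transcripts of the gene in GRCm38.p6, which may differ from the annotation the authors used. The 13 members with 2 or more had a median of 1.50 log2 CPM and the 36 with a single one a median of 6.93 log2 CPM. Psmd5, Psma8, Psma3, Psmd4, Psme2, Psmg4, Psmg3, Psmd10 and Psmf1 were under 32 CPM with 2 or more transcripts, whereas Psma6, Psma7, Psmc2 and Psmg2 were above that level. This is 69.2% of the 13 members under 32 CPM, with Psmd5 at the floor counted among them. For coding genes with 2 or more transcripts it was 91.2% of all 7619, and 89.3% of the 6218 above the floor. With 1 transcript, 10 of the 36 members (27.8%) were under 32 CPM, against 77.4% of all 12152 coding genes and 70.2% of the 9232 above the floor. Over the coding genes above the floor the median was 2.30 log2 CPM for 9232 genes with 1 RefSeq transcript and -0.03 log2 CPM for 6218 genes with more. With floor genes kept, these medians were -0.28 for 12152 genes and -0.89 for 7619 genes. In the 19 equimolar subunits with 1 transcript and under 10% shared words, 2 were below 1 CPM, Psmc4 and Psmd8, and the other 17 ranged from 4.56 to 8.07 log2 CPM per kilobase. The part of either property in the low values was not tested.

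**Figure D4:**
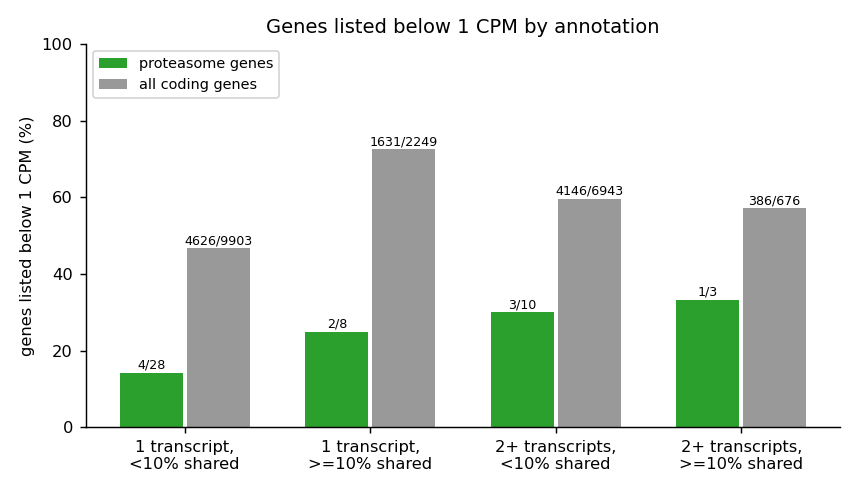
Share of genes listed below 1 CPM, in percent, for the 49 proteasome genes (green) and all coding genes (grey), split by 1 or by 2 or more RefSeq transcripts and by under 10% or at least 10% shared words. Numbers over the bars are genes below 1 CPM of all genes in the group; for proteasome genes they are 4 of 28, 2 of 8, 3 of 10 and 1 of 3.

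Genes that work beside the proteasome also had unlike levels. Of the 6 ubiquitin genes and activating enzymes, 3 were below 1 CPM. Uba6 was the highest at 4.62 log2 CPM, and the ubiquitin genes Ubb and Rps27a were at the floor. Of the shuttle factors and the unfoldase, which carry substrates to the proteasome, Rad23b was the highest at 8.24 log2 CPM and Ufd1l the lowest at -2.44. Of the partners, the deubiquitinase Uchl5 was at the floor. Of the 8 regulators of proteasome transcription, 4 were below 1 CPM. Nfe2l2 was the highest at 7.47 log2 CPM, while Nfya, Nfyc and Stat3 were at the floor.

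Promoters were available for 41 of the 49 members, as RefSeq windows of 300 bases from 250 before to 50 after the start (GRCm38.p6). The 4 motifs below were searched on both strands: TGACNNNGC, the core of the antioxidant response element, CCAAT, the NF-Y box, GAAANNGAA, the core of the interferon-stimulated response element, and TATAAA, the TATA box. Of the 41 members, 6 held TGACNNNGC (14.6%, against 14.0% of 27025 genes), 15 held CCAAT (36.6% against 41.1%), 7 held GAAANNGAA (17.1% against 9.76%) and 4 held TATAAA (9.76% against 15.7%). In the last 150 bases before the start the order for GAAANNGAA was the opposite, with 1 of 41 members (2.44%) against 4.61% of all genes. No promoter of the 3 immunoproteasome genes held GAAANNGAA in either window. In the window of 300 bases, Psmb9 held CCAAT and Psmb8 held TATAAA, the latter at 237 bases before the start. These matches are letters in a window and not sites, and 1 gene is 2.44 points of the members' share. The 150 bases before the start are shown for Psmb6, whose level per kilobase was among the highest of the beta subunits, for Psme3, the highest member in CPM, and for Psmd4, a low one, with the motif matches in capitals.
Psmb6, chr11:70525207-70525356, plus strand: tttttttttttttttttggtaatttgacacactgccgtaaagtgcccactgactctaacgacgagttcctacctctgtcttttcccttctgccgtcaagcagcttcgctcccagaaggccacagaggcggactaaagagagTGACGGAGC
Psme3, chr11:101316063-101316212, plus strand: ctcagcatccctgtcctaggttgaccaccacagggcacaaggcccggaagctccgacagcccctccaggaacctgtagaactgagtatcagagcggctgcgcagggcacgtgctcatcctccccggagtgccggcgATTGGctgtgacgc
Psmd4, chr3:95042615-95042764, minus strand: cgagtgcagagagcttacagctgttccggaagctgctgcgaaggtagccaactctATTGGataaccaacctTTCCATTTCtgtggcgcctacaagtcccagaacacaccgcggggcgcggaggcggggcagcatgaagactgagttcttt

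In Psmb6 the capitals are TGACNNNGC, in Psme3 they are CCAAT on the other strand, and in Psmd4 they are CCAAT and GAAANNGAA, both on the other strand. The windows of Psme3 and Psmd4 thus share a CCAAT match, at 14 and 95 bases before the start, although Psme3 was listed at 9.55 and Psmd4 at -2.05 log2 CPM.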

How the data were processed

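RNA of 12 whole fetal livers was sequenced. Per the labels and the study's methods, the authors trimmed reads with cutadapt 1.2.1, used Subread 1.3.6-p1 to align to mm10, and tested the diets in edgeR. How reads were counted is not given in the sources used here. The deposited table gives each gene an average log2 CPM over all livers, and the authors' fold changes, p-values and adjusted p-values for HFD against control under 2 dispersions. Those comparison columns were not used. Both log2 CPM columns are identical. A test of the diets planned for counts of single livers could not be run. Lengths and shared 50-base words (every 5th word) came from GENCODE M21 transcripts and matched 20247 rows, 65.9% of the table. Promoters came from RefSeq. Every member was named. Of other lists, the highest, the lowest and all genes at the floor were named, and further genes were chosen after their values were seen. The members and lists were chosen with earlier results of these data known. Alternatives were another average, other genes, other lengths and other promoter windows. The word search and motif search were tested on simulated sequences. Python 3.11.15, numpy 2.4.6, pandas 2.3.3 and matplotlib 3.10.9 were used.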

Additional observations from a re-analysis of the deposited data

How the results depend on the processing

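No paired analysis was possible because the table holds no values of single livers, and for the same reason the planned tests of the diets with another tool, without a filter and without each liver were not run. The immunoproteasome subunits stayed below their counterparts on each scale: per coding length the differences were -0.27, -4.15 and -0.65, and in CPM alone -0.21, -4.27 and -0.67 (log2, for Psmb8, Psmb9 and Psmb10). With the mean in place of the median, class levels were 5.40 (alpha), 6.74 (beta), 4.06 (immunoproteasome), 4.48 (ATPases), 3.74 (non-ATPases), 0.61 (base chaperones), 5.34 (activators) and 3.97 (all members) log2 CPM per kilobase. Alternatives chosen after seeing the data were without members below 1 CPM, which gave 7.11 (alpha), 7.60 (ATPases), 6.95 (non-ATPases), 3.34 (base chaperones, also without the member at the floor) and 6.38 (all members), and genes with 1 RefSeq transcript and few shared words, which gave 7.31 (beta), 6.95 (non-ATPases), 5.58 (base chaperones), 6.66 (activators), 5.77 (core assembly chaperones) and 6.64 (all members). Some of these values rest on very few genes. With 1 RefSeq transcript and few shared words, the base chaperones are Psmd9 alone and the core assembly chaperones Psmg1 alone. The activators are 2 genes there, and the base chaperone value of 3.34 rests on 2 genes. Among genes above 1 CPM, the class medians of immunoproteasome, base chaperone and core assembly chaperone genes fell to percentiles 65.4, 34.2 and 67.7. The spread of the equimolar subunits was 3.75 in CPM alone, 1.45 without subunits below 1 CPM and 2.69 over genes with 1 transcript and few shared words, and the range was 12.04. The GAAANNGAA share was 2.44% in the last 150 bases, against 4.61% of all genes. Against promoters of genes above 1 CPM, members minus background became -2.30 points for TGACNNNGC and 1.03 points for TATAAA, both reversed in sign. Class shares of the summed level moved by under 10 points between scales.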
